A study of Mus musculus with 12 samples.

Results

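The nuclear genes of the mitochondrial respiratory chain, together with cytochrome c (Cycs) and uncoupling protein 2 (Ucp2), were followed in stem cells sorted from hair follicles of the back skin of mice. Members were the rows of both count tables whose names begin with Nduf, Uqcr, Atp5 or Sdh followed by a to d, or with Cox4 to Cox8, plus Ucp2 and Cycs, with names containing -ps left out. This gave 97 of the 37931 gene names present in both tables. By role they were 36 subunits of complex I, 4 of complex II, 8 of complex III, 11 of complex IV and 15 of complex V in their common forms, 9 assembly factors, 4 related factors, 8 tissue-restricted isoforms, Cycs and Ucp2. Ndufa4 was placed with complex IV. Annotation was found for 96 members, and the remaining name, Atp5l2, had no read in any library.

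RNA selected with oligo(dT) was sequenced from cells sorted as H2BGFP positive, Sca-1 negative, CD34 positive and CD49f positive. All mice carried K14-H2BGFP, a green fluorescent histone under the keratin 14 promoter of basal keratinocytes, and Foxc1 fl/fl alleles. Knockout (KO) mice also carried K14Cre, so the recombinase was driven in the whole keratin 14 lineage and not in stem cells alone, while wild-type (WT) controls carried no Cre. In anagen, the growth phase, there were 2 KO libraries (P29 and P31) and 3 WT libraries (P29, P30 and P31). In early telogen, the resting phase, there were 4 KO libraries (replicates 1, 2 and 3 at P47 and replicate 5 titled P43) and 3 WT libraries (replicates 1, 3 and 4 at P47). The anagen WT replicate titled P31 has an age label of day 43, and the early telogen KO replicate titled P43 has one of day 47. By label, the 2 KO libraries of anagen were female, and of the 3 WT libraries there 1 was female and 2 were male. In the column names of early telogen, WT replicates 1 and 3 and KO replicates 1 and 3 carry the letter f. WT replicate 4 and KO replicate 2 carry m, and KO replicate 5 carries neither letter. Whether each replicate was its own animal is not labelled, and p-values then measure only the spread between these samples, which may be technical.

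Gene counts per library ran from 29025553 to 54482469 in anagen and from 2662083 to 11821916 in early telogen. Each stage was deposited as its own table, so stage, table and depth cannot be told apart in any comparison of stages. Foxc1, the targeted gene, had 0.206 and 0.276 CPM (counts of a gene scaled to the same total in every library) in anagen KO against 34.6 to 116 in anagen WT, and 0.910 to 3.11 CPM in early telogen KO against 43.8 to 61.2 in WT. The 10 follicle stem cell markers summed to between 21842 and 36126 CPM in every library, a sum that 3 keratins (Krt5, Krt14 and Krt15) dominate. Within it Krt15 had 1254 and 2192 CPM in anagen KO against 4641 to 9289 in WT, and the stem cell factor Nfatc1 had 99.3 and 60.02 CPM against 159.9 to 234. The 10 markers did not all move this way. In anagen 4 had a positive and 6 a negative log2 difference of KO from WT, and 0 passed edgeR's test. Sox9, for example, had 895 and 1124 CPM in KO against 585 to 970 in WT. Summed fibroblast markers stood apart in 2 early telogen libraries, at 5025 CPM in KO replicate 2 and 261 CPM in WT replicate 3, against 471 to 1529 in the other 5. Skeletal muscle markers, which come with muscle forms of several members, summed to 0 to 5.58 CPM. In the anagen table the share of reads placed at more than 1 position, which were not counted for genes, was 32.8% and 31.1% in KO and 20.1% to 25.8% in WT. Many respiratory chain genes have processed copies elsewhere in the genome, so their counts leave out reads shared with those copies.

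The respiratory chain passes electrons from NADH and succinate to oxygen and pumps protons across the inner mitochondrial membrane. Complexes I and II feed electrons in, complex III hands them to cytochrome c, complex IV reduces oxygen, and complex V uses the proton gradient to make ATP. Most subunits are encoded in the nucleus and a small core by mitochondrial DNA, and nuclear respiratory factor 1 is a known regulator of the nuclear set. Ucp2 is an inner membrane carrier of the uncoupling protein family that exports dicarboxylates and is tied to substrate choice and oxidant levels. Hair follicle stem cells are known for a glycolytic metabolism, and they are quiescent for most of the hair cycle.

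Because the members share a regulator, their promoters were read for its palindrome. RefSeq promoters (GRCm38.p6, 250 bases before to 50 after the start) were at hand for 77 members, and the palindrome, GCGCA and GCGC separated by any 1 base and searched on both strands, occurred in 19 of them (24.7%). A gene counted as a match if any of its promoters held the motif. The palindrome occurred in 5.19% of the 27025 genes with promoters of the same length. Among the 9294 of them tested between WT stages it occurred in 11.1%. Windows of 30 bases are shown for members whose match reads the same on both strands and lies before the RefSeq start, subunits of complexes I, IV and V and 1 assembly factor, with the match in capitals, read 5′ to 3′ on the strand of the gene.
Ndufa11 (chr17:56717692-56717721, +): cctgcactgcGCGCATGCGCgcacgccttg
Cox6a1 (chr5:115349101-115349130, -): caggaacgggGCGCATGCGCgctctcgctc
Atp5g2 (chr15:102671070-102671099, -): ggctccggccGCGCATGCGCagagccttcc
Atp5k (chr5:108434430-108434459, -): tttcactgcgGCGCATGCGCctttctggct
Ndufaf4 (chr4:24897960-24897989, +): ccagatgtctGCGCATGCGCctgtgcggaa
The ETS family core CCGGAAG was found in 19 of the 77 members (24.7%) against 9.93% of all genes with a promoter and 19.3% of those tested. The forkhead core TAAACA was found in 5 of 77 (6.49%) against 15.1% and 9.93%. Neither the Ucp2 nor the Cycs promoter window holds any of these 3 motifs on either strand. By the gene bounds of GENCODE M21 the match lies before the start in Ndufa11, Cox6a1 and Ndufaf4, across it in Atp5k and inside the gene in Atp5g2. A match here describes letters in a window and not binding.

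Between stages Ucp2 had the largest difference of any member tested, in both genotypes. The gene spans bases 100493337 to 100502020 of chromosome 7 and is read from the plus strand (GRCm38, GENCODE M21). Its 3′ end overlaps Dnajb13 on the other strand, which had 0 to 0.0257 CPM in these libraries. In anagen, Ucp2 had 3956 and 4910 CPM in the KO libraries and 2394, 1542 and 2050 CPM in WT replicates 1, 2 and 3. Both KO libraries were above every WT library. In early telogen it had 193, 274, 174 and 214 CPM in KO replicates 1, 2, 3 and 5, and 133, 61.5 and 66.9 CPM in WT replicates 1, 3 and 4. The 4 KO libraries again lay above the 3 WT libraries, and WT replicate 1 was nearest to them.

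**Figure D1:**
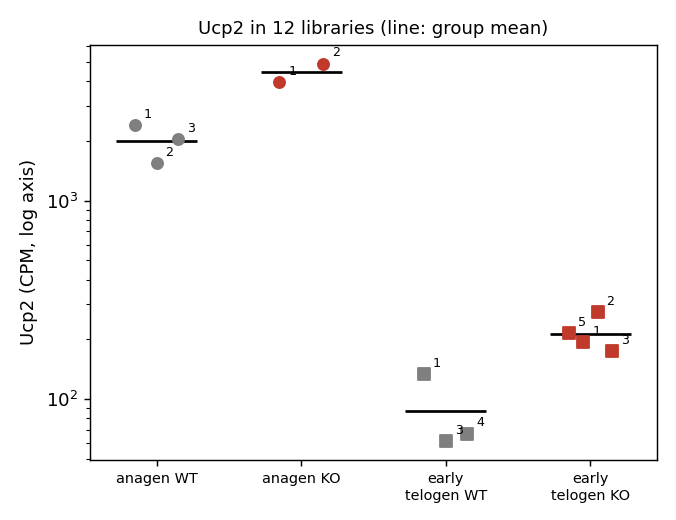
Ucp2 level in CPM on a log axis for each of the 12 libraries, by stage and genotype; numbers are replicate numbers and lines are group means. Anagen libraries lie between 1542 and 4910 CPM and early telogen libraries between 61.5 and 274 CPM, and within each stage no KO library overlaps a WT library.

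The fall of Ucp2 from anagen to early telogen passed the test in both genotypes. In WT the log2 fold change was -4.44 ± 0.33 (SE), 21.7-fold lower, with an adjusted p of 0.000222 in edgeR's quasi-likelihood test with Benjamini-Hochberg adjustment over all genes. In KO it was -4.39 ± 0.25, or 20.97-fold lower, with an edgeR adjusted p of 5.97e-06. No early telogen library came near an anagen one, and the 2 stages differ in table and depth as stated above.

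The KO difference in Ucp2 did not pass in either stage alone. It was 1.06 ± 0.26 on the log2 scale in anagen (2.09-fold, edgeR adjusted p = 0.245) and 1.12 ± 0.25 in early telogen (2.18-fold, edgeR adjusted p = 0.0504). DESeq2 called it in both stages, with adjusted p of 0.00553 and 0.00134. An exact two-sided permutation test of log2 CPM gave p = 0.1 in anagen and p = 0.0286 in early telogen, each the smallest that these group sizes allow. The KO effects of the stages differed by 0.04 ± 0.38, a difference that turned sign in several alternatives and did not pass (edgeR adjusted p = 1). Averaged over both stages in 1 fit of all 12 libraries, a comparison chosen after the data were seen, Ucp2 was 1.08 ± 0.19 higher in KO on the log2 scale (2.12-fold, edgeR adjusted p = 0.0070). It kept an adjusted p between 2.68e-07 and 0.0358 in every alternative run for that average. The average uses the same libraries as the comparisons within stages and is no separate evidence. In early telogen the difference was 0.89 (edgeR adjusted p = 0.212) without the KO and WT libraries that stand apart in fibroblast markers, and 1.51 (edgeR adjusted p = 0.0127) without WT replicate 1.

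Some other values also moved with genotype in the same libraries, and others overlapped. The 16 mitosis genes summed to 183 to 238 CPM in early telogen KO and 22.5 to 46.5 in WT, and 8 of them rose, with Mki67, a proliferation marker, at 2.52 ± 0.22 (edgeR adjusted p = 9.65e-05) and Anln, of the cleavage furrow, at 2.03 ± 0.23 (0.00104). In the average over stages 7 rose. In anagen they summed to 711 and 192 CPM in KO and 367, 130 and 82.4 in WT, which overlap. All 16 had a positive log2 difference there (median 1.17), against 51.9% of all genes, and 0 passed edgeR's test. Summed immune markers, among cells known to express Ucp2, overlapped between KO and WT in both stages. The sums were 62.4 to 255 CPM in early telogen KO and 18.3 to 106 in WT, and 51.4 and 218 against 23.03 to 138 in anagen. Of these markers 0 of 7 tested passed edgeR's test in early telogen and 0 of 9 in anagen. Of 4 melanocyte markers tested in early telogen, 1 rose, Dct, a melanin enzyme, with 7.58 to 17.8 CPM in KO and 1.30 to 2.32 in WT (2.34 ± 0.43, edgeR adjusted p = 0.0274). All 4 had an unadjusted p under 0.05, 3 with a positive and 1 with a negative value (median 2.26). In anagen 0 of 7 passed and all 7 were negative (median -1.36), with Dct at 13.02 and 15.7 CPM in KO and 11.3 to 64.8 in WT. In the average over stages, 3 of the 10 stem cell markers fell in KO. These were Cd34 (-1.22 ± 0.20, edgeR adjusted p = 0.00479), Krt15 (-1.19 ± 0.23, 0.0118) and Nfatc1 (-0.81 ± 0.18, 0.0272). In early telogen alone Krt15 averaged 8643 CPM in KO and 8976 in WT, and Nfatc1 355 and 366. For both genes the KO and WT libraries of that stage overlapped. The part of cycling, immune, pigment or stem cells in the Ucp2 difference was not tested, and in bulk samples a change in the share of a cell type and a change in RNA per cell cannot be told apart.

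Among 9 uncoupling proteins and related carriers, Ucp2 had the highest CPM in every anagen library but not in early telogen, where Slc25a3 (565 to 733 CPM) and Slc25a5 (268 to 374) were higher. Ucp1, the uncoupling protein of brown fat, averaged at most 0.0984 CPM in any group. Ucp3, the neighbour of Ucp2 on chromosome 7 and best known from muscle, averaged 2.27 CPM in anagen KO, 0.62 in anagen WT and 0.17 or less in early telogen. Slc25a4 and Slc25a5, which exchange ADP for ATP, fell in WT by 1.46 ± 0.21 and 0.81 ± 0.18 on the log2 scale (edgeR adjusted p = 0.00177 and 0.0102), while the phosphate carrier Slc25a3 was at 0.04 ± 0.16 (edgeR adjusted p = 0.883). Levels per kilobase used the median length of annotated protein-coding transcripts, 3988 nt for Ucp2. These need not be the forms expressed here, and the ranks depend on them. Per kilobase of transcript, Ucp2 averaged 1112 CPM in anagen KO, above every other member, and 500.3 in anagen WT, where only Cox4i1 was higher. In early telogen it averaged 53.6 in KO, where 37 of 96 members with a length were higher, and 21.9 in WT, where 53 were. The members' median per kilobase was 73.8, 63.0, 41.8 and 26.7 CPM in these 4 groups.

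Nuclear subunits of all 5 complexes were lower in early telogen than in anagen. The 74 common subunits summed to 7532, 8194 and 6223 CPM in anagen WT replicates 1, 2 and 3 and to 3990, 3143 and 4050 CPM in early telogen WT replicates 1, 3 and 4. In KO the sums were 8945 and 8432 CPM in anagen and 4170, 6063, 3965 and 5236 CPM in early telogen replicates 1, 2, 3 and 5. The stages did not overlap within a genotype, and early telogen KO replicate 2 was the highest of its stage. Markers of other kinds moved with stage in the same libraries. Of the 16 mitosis genes, 8 fell in WT (median -2.94) and 10 in KO (median -1.65). Fibroblast markers were positive for 9 of 9 tested in WT and 8 of 8 in KO, with 1 called higher in each. Of 5 melanocyte markers tested, 3 fell and 1 rose in WT, and 1 rose in KO. Their part in the members' difference between stages was not tested.

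**Figure D2:**
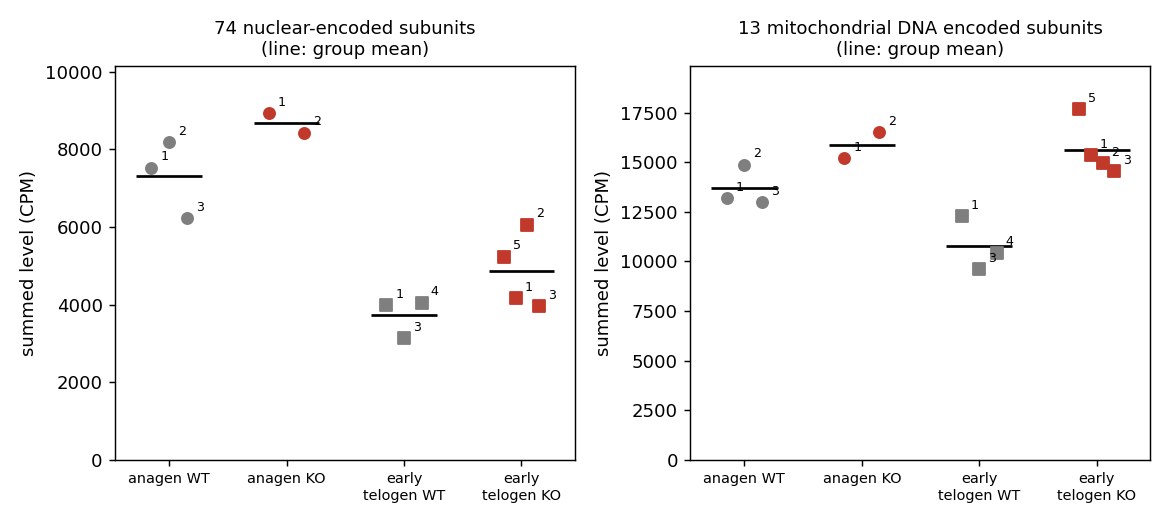
Summed CPM per library of the 74 nuclear-encoded subunits (left) and of the 13 subunits encoded by mitochondrial DNA (right), by stage and genotype, with replicate numbers and group means as lines. The nuclear sum is 6223 CPM or more in every anagen library and 6063 or less in every early telogen library. In WT the mitochondrial sum is 12984 to 14878 in anagen and 9620 to 12270 in early telogen, which do not overlap. In KO it is 15208 and 16499 in anagen and 14564 to 17654 in early telogen, which overlap.

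In WT, 67 of 90 members tested fell and 0 rose, against 15.9% of all genes lower and 13.5% higher. Their median log2 fold change was -1.03, against -0.10 over the 12718 genes tested. The groups did not overlap, with early telogen lower, for 76 of the 90 members and for 29.9% of all genes. By complex, 31 of 36 subunits fell in complex I, 3 of 4 in complex II, 7 of 8 in complex III, 9 of 11 in complex IV and 13 of 15 in complex V, with medians between -0.98 and -1.14. Of the assembly factors 2 of 9 fell, and of the related factors 1 of 3 tested.

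In KO, 51 of 90 members tested fell and 0 rose, against 12% of all genes lower and 10.2% higher. The groups did not overlap, with early telogen lower, for 71 of the 90 and for 23.5% of all genes. The median was -0.90, against -0.03 over 12771 genes. By complex, 25 of 36, 3 of 4, 4 of 8, 8 of 11 and 10 of 15 subunits fell from complex I to V. The count was 30 without anagen KO replicate 1, 31 without replicate 2, and 35 and 36 without early telogen KO replicates 1 and 3. Over all genes, calls in either direction went from 22.2% to 11.8%, 10.2%, 16.7% and 17% in the same fits. Lower in both genotypes were 49 members, 49 of the 67 in WT and 49 of the 51 in KO, against 8.61% of all genes tested in both.

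**Figure D3:**
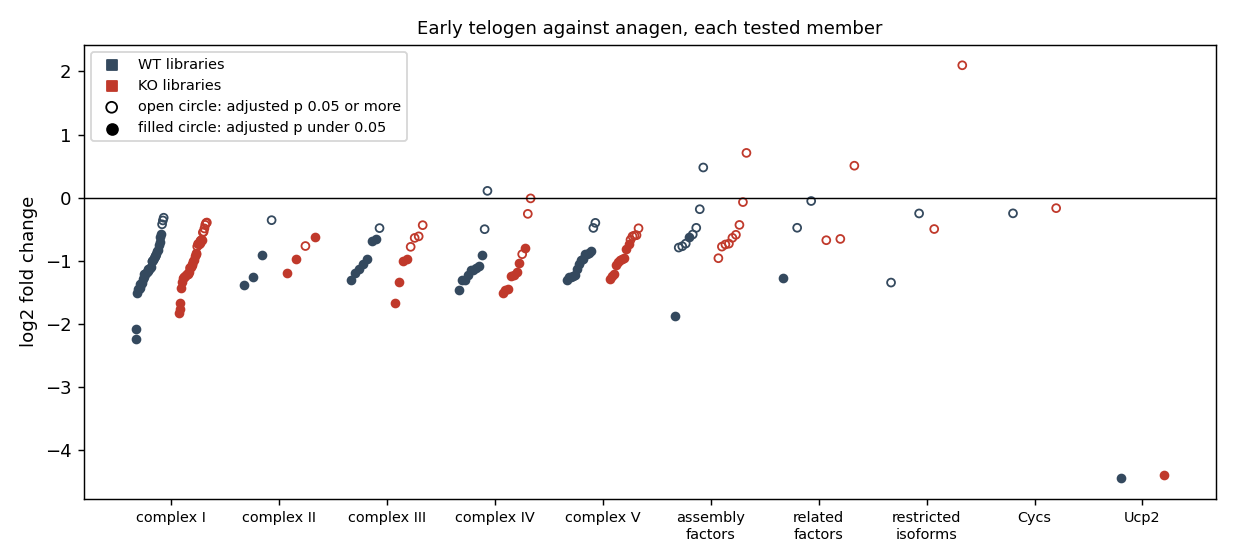
Log2 fold change of early telogen over anagen for each tested member, grouped by role, in WT (dark blue) and KO (red) libraries; filled points have an edgeR adjusted p under 0.05. Most subunits of all 5 complexes lie between -0.3 and -2.3, Ucp2 is lowest at -4.44 in WT and -4.39 in KO, and Ndufa4l2 in KO is highest at 2.10 with an open point.

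Ndufa3, a small accessory subunit of complex I, had the largest fall of a subunit in both genotypes. It had 48.2, 43.7 and 47.2 CPM in anagen WT and 12.9, 5.28 and 9.79 CPM in early telogen WT. In KO it had 63.2 and 69.5 CPM in anagen and 15.99, 30.7, 14.0 and 15.8 CPM in early telogen replicates 1, 2, 3 and 5. No library of 1 stage overlapped the other, and the log2 fold change was -2.24 ± 0.27 in WT (edgeR adjusted p = 0.00117) and -1.82 ± 0.26 in KO (edgeR adjusted p = 0.0010).

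The members of smallest p in WT after Ucp2 and Ndufa3 came from complexes I and IV. Cox6b1, a complex IV subunit facing the intermembrane space, fell from 147, 166 and 125 CPM to 54.7, 40.04 and 55.1 CPM (-1.47 ± 0.18, edgeR adjusted p = 0.00121). Ndufa7 and Ndufa2, accessory subunits of complex I, both fell by 1.44 on the log2 scale, with SEs of 0.18 and edgeR adjusted p of 0.00122 and 0.00128. Cox8a, the common form of the smallest complex IV subunit, fell by 1.30 ± 0.17 (edgeR adjusted p = 0.00136). In KO the corresponding genes were Uqcr10 of complex III (-1.67 ± 0.25, edgeR adjusted p = 0.0012), Cox6a1 of complex IV (-1.51 ± 0.23, 0.00123), Ndufc2 of complex I (-1.66 ± 0.28, 0.00242) and Atp5g3 of complex V (-1.28 ± 0.22, 0.00261). Atp5g3 encodes 1 of the precursors of subunit c, which forms the rotor ring.

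The most abundant member of each complex showed smaller differences. Atp5b, the catalytic beta subunit of complex V, had 968, 868 and 732 CPM in anagen WT and 618, 483 and 638 CPM in early telogen WT. These groups did not overlap, but the difference of -0.48 ± 0.18 did not pass (edgeR adjusted p = 0.0769), and neither did that in KO (-0.59 ± 0.24, edgeR adjusted p = 0.103). Cox4i1, the common form of complex IV subunit 4, fell in WT (-0.91 ± 0.19, edgeR adjusted p = 0.00766) and in KO (-0.79 ± 0.25, 0.0425). Ndufv1, which holds the NADH site of complex I, fell by 0.58 ± 0.19 in WT (edgeR adjusted p = 0.0439) and 0.66 ± 0.21 in KO (0.0432). Sdha, the flavoprotein of complex II, was at -0.36 ± 0.16 in WT (edgeR adjusted p = 0.121) and fell by 0.62 ± 0.20 in KO (0.0495). Uqcrc1, a core subunit of complex III, fell by 0.66 ± 0.20 in WT (edgeR adjusted p = 0.0328) and was at -0.61 ± 0.23 in KO (0.0797). A call in 1 genotype and not in the other is not a difference between genotypes, which is the test given further on.

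Outside the complexes, Sdhaf2, which adds the flavin to Sdha, fell by 0.63 ± 0.21 in WT (edgeR adjusted p = 0.0450) and was at -0.59 ± 0.25 in KO (0.118). Cox7a2l, which takes part in joining complexes III and IV, fell by 1.27 ± 0.22 in WT (edgeR adjusted p = 0.00374) and was at -0.67 ± 0.25 in KO (0.0745). Cycs, the mobile electron carrier, had 115, 131 and 87.6 CPM in anagen WT and 78.2, 104 and 80.4 CPM in early telogen WT. In KO it had 117 and 111 CPM in anagen and 99.6, 88.5, 87.5 and 131 CPM in early telogen. The stages overlapped in both genotypes, with log2 differences of -0.25 ± 0.21 (edgeR adjusted p = 0.411) and -0.17 ± 0.25 (0.668).

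Few tested members had a positive value between stages. In WT these were Ndufaf4, an assembly factor of complex I (0.48 ± 0.25, edgeR adjusted p = 0.182), and Cox7c, a small subunit of complex IV (0.11 ± 0.24, 0.769). In KO they were Ndufaf4 (0.71), Atp5s, a factor related to complex V (0.51), and Ndufa4l2, given further on, with edgeR adjusted p of 0.137 to 0.512. Cox7c had 37.8, 41.5 and 30.8 CPM in anagen WT and 53.5, 28.3 and 30.8 CPM in early telogen WT, so the stages overlapped. Ndufaf4, Cox7c and Atp5s were singled out here after their values were seen. Ndufaf4 holds the palindrome shown above, as does Cox6a1, which had one of the lower values in KO. Over the 19 members tested with the palindrome the WT median was -0.98, and over the 55 without it -1.12.

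Members have short transcripts, and over all genes the stage difference was graded by transcript length. The median of the lengths of protein-coding transcripts was 755 nt for the 95 members with a length under their own name and 2735 nt for 11503 genes tested in WT. In WT, genes of up to 500 nt had a median log2 fold change of -0.98, those of over 500 and up to 1000 nt -0.79, those of up to 1500 nt -0.51, those of up to 2500 nt -0.26 and longer ones 0.14. Members in the same classes had medians of -1.19, -1.14, -0.95, -0.71 and -0.36. In KO they were -1.22, -1.002, -0.74, -0.64 and -0.48, while all genes ran from -0.85 in the shortest class to 0.16 in the longest. Of the 41 members of over 500 and up to 1000 nt, 35 fell in WT, against 46.2% of the 812 genes of that length. The members' median was lower than that of all genes in each of the 5 classes in both genotypes, and the part of length in the members' fall was not tested further.

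**Figure D4:**
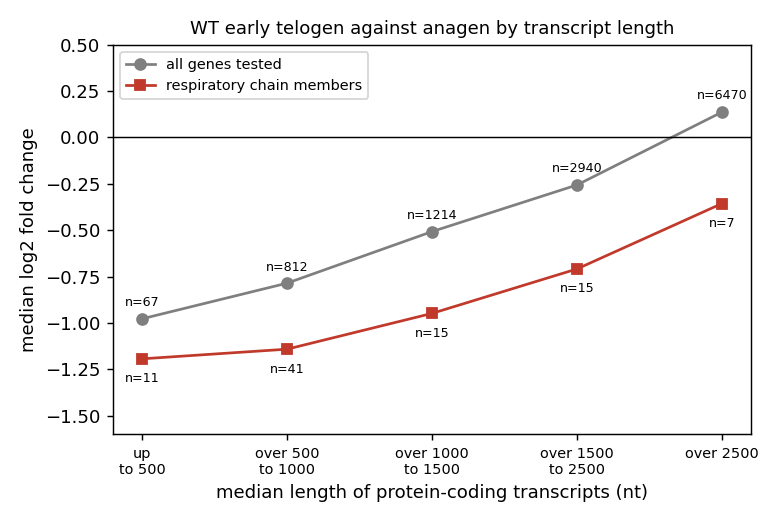
Median log2 fold change of WT early telogen over anagen by class of transcript length in nucleotides, for all genes tested (grey) and for members (red), with the number of genes at each point. Both lines rise with length, from -0.98 to 0.14 for all genes and from -1.19 to -0.36 for members.

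Fewer of the subunits encoded by mitochondrial DNA passed between stages, without a test of the difference from the nuclear set. Of the 8 tested, 2 fell in WT, namely mt-Nd4 of complex I (-0.88 ± 0.19, edgeR adjusted p = 0.00806) and mt-Cytb of complex III (-0.80 ± 0.20, 0.0139), and 0 of 8 changed in KO. Over all genes 15.9% were lower and 13.5% higher in WT, and 12% and 10.2% in KO. These 8 are too few genes to set apart from those shares. Medians of the 8 were 0.07 in WT and 0.04 in KO. mt-Co1, the catalytic subunit of complex IV, was at 0.33 ± 0.19 in WT (edgeR adjusted p = 0.209). The genes mt-Co2, mt-Co3, mt-Atp6, mt-Atp8, mt-Nd3 and mt-Nd4l averaged under 1 CPM in every group, so the summed level comes from the other 7 genes. The summed mitochondrial level was 12984 to 14878 CPM in anagen WT, 15208 and 16499 in anagen KO, 9620 to 12270 in early telogen WT and 14564 to 17654 in early telogen KO. In WT the stages did not overlap, with early telogen lower, while in KO they did. Within each stage every KO library was above every WT library.

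Related mitochondrial lists fell in part, and their counts in WT stand against 15.9% of all genes lower and 13.5% higher. Of 28 assembly factors and partner proteins outside the rule tested in WT, 11 fell and 0 rose (median -0.74). Among them were Acad9, needed to assemble complex I (-1.74 ± 0.17, edgeR adjusted p = 0.000501), and Cyc1, the cytochrome c1 of complex III (-0.89 ± 0.17, 0.0050). In the tricarboxylic acid cycle 6 of 20 fell and 1 rose (median -0.43), with Fh1, the fumarase, at -1.51 ± 0.22 (edgeR adjusted p = 0.00187) and Pdha1, a subunit of pyruvate dehydrogenase, higher by 0.95 ± 0.17 (0.00409). Of 8 genes of mitochondrial superoxide and peroxide defence 4 fell, among them Sod2 (-0.72 ± 0.21, edgeR adjusted p = 0.0314). Of 16 regulators of mitochondrial biogenesis only 11 were tested. Ppargc1a, Ppargc1b, Polg, Polg2 and Polrmt have no row in the early telogen table, so their levels there are unknown. Of the 11 tested, 2 fell and 1 rose (median 0.25), close to the shares over all genes. Esrra and Ssbp1 fell, and Pprc1, a coactivator, rose by 1.40 ± 0.21 (edgeR adjusted p = 0.00217). Nrf1, the factor of the palindrome, was at 0.25 ± 0.20 (edgeR adjusted p = 0.386). Of 16 glycolysis genes only 10 are in both tables. Among these 10, all tested, 2 rose and 3 fell, too few genes to set apart from those shares.

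In the comparison of KO with WT, the question was whether loss of Foxc1 went with a change in the chain. No member passed edgeR's test in either stage: 0 of 90 in anagen, where 0% of all genes passed, and 0 of 89 in early telogen, where 0.956% did. At an unadjusted p under 0.05 there were 4 members in anagen (10.1% of all genes) and 9 in early telogen (12% of all genes). DESeq2 called 1 member in anagen, Ucp2 (3.51% of all genes), and 2 in early telogen, Ucp2 and Ndufa4l2 (3.52% of all genes). Most members nevertheless had small positive values. In anagen 77 of 90 were above 0 (51.9% of all genes), with a median log2 difference of 0.18 against 0.02 for all genes. In early telogen 82 of 89 were above 0 (53.7% of all genes), with a median of 0.26 against 0.03. Without the early telogen libraries that stand apart, KO replicate 2 and WT replicate 3, these values were 62 of 89 and 0.10, and without anagen WT replicate 3 the anagen values were 56 of 90 and 0.07. Genes of over 500 and up to 1000 nt, the class of most members, had an early telogen median of 0.22, against 0.26 for the members of that class. In anagen the same class had a median of 0.03, against 0.17 for its members.

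**Figure D5:**
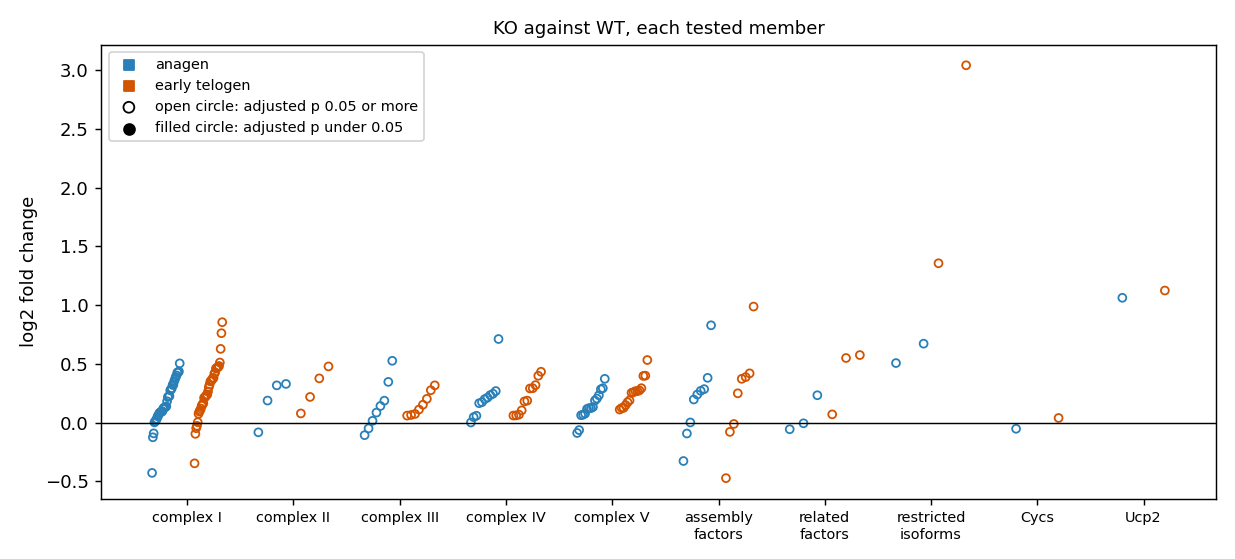
Log2 fold change of KO over WT for each tested member, grouped by role, in anagen (blue) and early telogen (orange); all points are open because none has an edgeR adjusted p under 0.05. Most members lie between 0 and 0.5, Ucp2 is at 1.06 and 1.12, and the highest point is Ndufa4l2 in early telogen at 3.04.

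The CPM of KO and WT did not overlap, with KO higher, for 41 of 90 members in anagen (18.5% of all genes) and 15 of 89 in early telogen (9.75%). CPM lack the TMM scaling of the edgeR fits, and KO differences can be larger on them. For Ucp2 the difference in mean log2 CPM was 1.17 in anagen and 1.36 in early telogen, against 1.06 and 1.12 in the fits. With KO lower there were 0 in both (11.2% and 3.37% of all genes). In both stages KO was above every WT library for 8 of 89 members, against 2.54% of all genes. These 8 were Ndufa2, Ndufa3, Ndufa12 and Ndufs6 of complex I, Ndufa4 of complex IV, Atp5g3 of complex V, Sdhaf2 and Ucp2. Ndufs6, for example, had 55.0 and 51.5 CPM in anagen KO and 41.1, 44.9 and 30.1 in WT. In early telogen it had 21.7, 29.7, 18.8 and 24.0 CPM in KO and 17.1, 11.4 and 17.0 in WT.

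By the size of the difference, the members above 5 CPM with the highest values in anagen after Ucp2 were Ndufaf5, an assembly factor of complex I (0.83 ± 0.45, edgeR adjusted p = 0.594), and Ndufa4 (0.71 ± 0.30, 0.487). Ndufa4 had 109 and 62.7 CPM in KO and 58.7, 51.6 and 37.3 in WT, and KO replicate 1 was the highest of the 5 libraries. The lowest were Ndufa11 (-0.43 ± 0.27), Ndufaf4 (-0.33 ± 0.30) and Ndufb11 (-0.12 ± 0.28), with edgeR adjusted p of 0.657 to 0.919. In early telogen the highest were Ndufa4l2 and Cox6b2, described next, and Ucp2. The lowest were Ndufb2 (-0.35 ± 0.36), Ndufa1 (-0.09 ± 0.44) and Ndufaf4 (-0.08 ± 0.34), with edgeR adjusted p of 0.775 to 0.961. For Cycs the values were -0.05 ± 0.23 in anagen and 0.04 ± 0.22 in early telogen, with edgeR adjusted p of 0.968 and 0.967. The exact permutation test used mean log2 CPM instead, where KO differed from WT by 0.06 in anagen and 0.21 in early telogen. It gave p of 0.9 and 0.343.

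Of the 8 tissue-restricted isoforms, 6 were at or near 0. Cox6a2, Cox7a1 and Cox8b of heart and skeletal muscle, Cox7b2 and Cox8c of testis and Cox4i2 of lung each had at most 0.489 CPM in any library. Their common forms, Cox6a1, Cox7a2, Cox8a, Cox7b and Cox4i1, all had 31.2 CPM or more in every library. Cox6b2, a testis form, had 1.02 to 10.5 CPM, against 40.04 to 191 CPM for Cox6b1. Its KO difference was 0.51 ± 0.67 in anagen and 1.36 ± 0.59 in early telogen (edgeR adjusted p = 0.852 and 0.373).

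Ndufa4l2, a relative of Ndufa4 known as a hypoxia-induced gene and a marker of pericytes, had a wide range between early telogen libraries. In early telogen KO replicates 1, 2, 3 and 5 it had 22.6, 192, 27.9 and 48.8 CPM, and in WT replicates 1, 3 and 4 it had 7.23, 2.13 and 13.7 CPM. The groups did not overlap, yet the log2 difference of 3.04 ± 1.02 did not pass (edgeR adjusted p = 0.317, range over its alternatives 0.0233 to 0.758). Its highest library, KO replicate 2, and its lowest, WT replicate 3, are the ones with the highest and lowest fibroblast sums, and without both the difference was 1.59 (edgeR adjusted p = 0.160). The part of other cells in it was not tested beyond this. In anagen it had 10.6 and 21.3 CPM in KO and 6.88, 13.8 and 7.44 CPM in WT, which overlap (0.67 ± 0.42, edgeR adjusted p = 0.657). Between stages it was at -0.25 ± 0.59 in WT (edgeR adjusted p = 0.787) and 2.10 ± 0.89 in KO (0.137).

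The difference of the KO effects between stages, which is also the difference of the stage effects between genotypes, passed for 0 of 90 members, against 0.144% of all genes. At an unadjusted p under 0.05 there were 0 members (6.37% of all genes), and DESeq2 called 0 (1.14% of all genes). The median over members was 0.07, against 0.04 over all genes. Averaged over both stages, 1 of 90 members passed, Ucp2, against 2.73% of all genes, and 83 of 90 were above 0, against 52.9%.

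In the related lists no tested gene of mitochondrial DNA, biogenesis, the tricarboxylic acid cycle, assembly or peroxide defence passed the KO test in either stage. The genes of smallest p in anagen were Cyc1 and Timmdc1 (0.33 ± 0.18 and 0.41 ± 0.22), Fh1 and Suclg2 (0.51 ± 0.18 and -0.53 ± 0.23), mt-Nd6 and mt-Nd5 (0.64 ± 0.29 and 0.41 ± 0.21), Polrmt and Ppargc1b (0.44 ± 0.23 and 0.58 ± 0.35), and Gpx1 and Txnrd2 (-0.46 ± 0.23 and 0.54 ± 0.31). In early telogen they were Surf1 and Cox18 (0.42 ± 0.25 and 0.70 ± 0.42), Dlat and Ogdh (0.48 ± 0.22 and -0.40 ± 0.20), mt-Cytb and mt-Nd4 (0.46 ± 0.21 and 0.40 ± 0.21), Ssbp1 and Twnk (0.65 ± 0.34 and 0.48 ± 0.28), and Sod2 and Gpx4 (0.35 ± 0.22 and 0.29 ± 0.19). In glycolysis, the glucose transporter Slc2a1 fell in early telogen KO by 1.001 ± 0.21 (edgeR adjusted p = 0.0411), and Eno1, an enolase, was at 0.82 ± 0.28 (0.238). The same pair in anagen was Hk2 and Hk1, the hexokinases, at -1.36 ± 0.23 and -0.66 ± 0.20 (edgeR adjusted p = 0.122 and 0.336). Cd34, a gene of the sort, was lower in early telogen KO by 1.20 ± 0.21 (edgeR adjusted p = 0.0212).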

How the data were processed

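Per the submitters' processing notes, the authors used TopHat2, HTSeq and genome build mm10. Versions, settings and the strand option of counting are not given in the sources used here. What the authors deposited are unnormalized counts of reads for each gene, with a separate table for either stage. CPM were computed here from these deposited counts over all gene rows. From the early telogen file 3 broken lines were dropped, and 27 names turned into dates stayed in the totals only. Comparisons were fitted over all genes with edgeR 4.0.16 in R 4.3.3 (quasi-likelihood, robust, TMM, filterByExpr with a minimum count of 10), with Benjamini-Hochberg adjustment and a threshold of 0.05. Only the groups compared entered a fit, apart from the difference and the average, which used all 12 libraries. SEs came from the fold change and F statistic. The procedure was run on simulated counts for the comparisons between single groups only. The changes set there were larger than the KO differences of nearly all members, so that run does not bear on small differences. The members and gene lists were chosen with earlier results of these data known.

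Genes with values were Ucp2, Cycs, the most abundant member of each role, members that passed (6 of smallest p where more did), the 3 highest and 3 lowest KO differences among members reaching 5 CPM, the isoforms and, for lists, the 2 of smallest p. Alternatives were DESeq2 1.42.0, its size factors in edgeR, no filter, all libraries in 1 fit, sex as a covariate, a replicate block and leaving out each library. The average and the fit without early telogen KO replicate 2 and WT replicate 3 were added after seeing the data. Lengths and positions came from GENCODE M21 and promoters from RefSeq.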

Additional observations from a re-analysis of the deposited data

Results flagged for a closer look

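In 2 cases 1 early telogen KO library lay far from the other 3 of its group, and it was KO replicate 2 both times. Ndufa3 had 30.7 CPM there, against 14.0 to 15.99 in the others. Ndufa4l2 had 192 CPM there, against 22.6 to 48.8. Chance alone gives such a gap in about 1 group in 20, and 33 genes were looked at. Early telogen KO replicate 2 also had the highest summed fibroblast markers, 5025 CPM, and the part of this in either value was not tested.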

How the results depend on the processing

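Depth limits early telogen most, where the shallowest library held 2662083 counts. In WT between stages the count of members that fell stayed within 57 to 67 in every alternative, and with no filter on low counts the median of all genes was -0.43 against -0.10. The KO count between stages ran from 30 to 58 when each library was left out. DESeq2 called 1 member in anagen KO against WT, 2 in early telogen and 3 for the average over stages (6.13% of all genes). With no filter the counts were 1 in early telogen (Ucp2; 1.85% of all genes), 4 for the average (5.16%) and 1 for the difference between stages (Ndufa4l2; 1.83%). With sex as a covariate they were 1 in early telogen (Ndufa4l2; 1.34%) and 2 for the average (2.13%). In early telogen, leaving out 1 library gave 0 to 1 (0.152% to 1.1% of all genes). The cause of each change was not tested.

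Values near 0 turned sign. In anagen KO against WT with sex as a covariate, Cox6b2 was at -0.46 and Ndufb11 at 0.023. In early telogen Cycs was then at -0.0023. Leaving out 1 library each, anagen values ran from -0.013 to 1.47 for Cox6b2, -0.20 to 0.089 for Cycs and -0.31 to 0.17 for Ndufb11. Early telogen values ran from -0.13 to 0.23 for Cycs, -0.44 to 0.31 for Ndufa1 and -0.38 to 0.15 for Ndufaf4. Ndufa4l2 between WT stages ran from -0.97 to 0.18, and the Ucp2 difference between stages from -0.12 to 0.42. Without early telogen KO replicate 2 and WT replicate 3, added after seeing the data, Ndufaf4 was at 0.32, Ndufa4l2 between WT stages at 0.18 and the Ucp2 difference at -0.19.

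The labels give shared numbers, days 29 and 31 in anagen and replicates 1 and 3 in early telogen, but only 2 pairs each and no statement that they mark litters or days of preparation. Deviations of same-numbered libraries correlated at 0.41 and 0.36 in anagen and at 0.11 and 0.05 in early telogen across genes, which are not independent. With the replicate block 0 members were called in either stage, over all genes 253 were called in anagen against 0 and 11 in early telogen against 115, and the members' median was 0.27 and 0.07. Under the block Cycs was at 0.10 in anagen and -0.059 in early telogen, Ndufb11 at 0.18 in anagen and Ndufaf4 at 0.20 in early telogen. Ucp2 was at 0.91 in both stages (edgeR adjusted p = 0.0851 and 0.354).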
